A study of Mus musculus with 48 samples.

Results

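Of the 187695 loci of captured methylated DNA in the whole table, 289 overlapped 10 windows around imprinted gene clusters of the mouse genome. The members were chosen by position alone, as every locus that overlapped the H19/Igf2 (35 loci), Kcnq1 (64), Peg3 (20), Dlk1/Meg3 (65), Gnas (24), Igf2r (37), Peg10 (17), Mest (7), Grb10 (7) or Plagl1 (13) window of the GRCm38 assembly. Loci are numbered along each window, so that Igf2r locus 21 is the locus of that number in the Igf2r window. The amygdala of C57BL/6 males (a C57BL/6N background) aged 4 months was the source of the DNA, from which methylated fragments were captured by an MBD, the protein domain that binds methylated CpG, and sequenced. The mice carried no, 1 or 2 null alleles of Tph2, which encodes the rate-limiting enzyme of brain serotonin synthesis: Tph2+/+ mice are wildtype, Tph2+/- mice heterozygous and Tph2-/- mice homozygous null. Litters either underwent maternal separation (MS), being kept apart from their mothers 3 h daily between postnatal days 2 and 15, or had standard rearing (control, C), which gave 6 groups of 8 mice with 1 library each. The null allele is constitutive, and the parents of all groups were heterozygous, so that Tph2+/+ mice also had Tph2+/- dams. All mice, C included, had passed through behavioural tests before the tissue was taken, and mice of a group could share a litter.

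Imprinted genes are expressed mainly from the allele of 1 parent. In each cluster this is directed by a control region, a stretch rich in CpG that receives methylation in the egg or in the sperm and keeps it on that parental copy in body cells. On the methylated copy the region can silence a promoter, as at Kcnq1ot1 and Airn, long non-coding RNAs that silence neighbouring genes in cis, or can block the binding of the insulator protein CTCF, as upstream of H19. Zinc finger proteins such as ZFP57 bind the methylated copy and recruit the machinery that maintains the mark. Several of these genes are active in the brain, among them Peg3, Dlk1, Grb10 and Gnas. The counts used here do not separate the parental alleles, so that a control region with 1 methylated copy can be seen only as a level between those of unmethylated and fully methylated sequence.

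For each cluster a control locus was taken as the locus with the highest mean count among those within 1 kb of an annotated start of the anchor gene, or upstream of H19 and Meg3, which left 1 to 3 candidates per anchor and gave 11 control loci. The name goes by position, and the Dlk1/Meg3 window holds more than 1 such locus, so that not every control locus need be a control region. Maternal methylation is known for 8 of the 11 control loci (Plagl1, Grb10, Airn, Nespas with Gnas, Peg10, Mest, Peg3 and Kcnq1ot1) and paternal methylation for 3 (H19 upstream, Meg3 upstream and Meg3). The motifs they carry are shown first, since they were found from sequence alone. The CTCF core, a part of the motif of that protein, was searched as CCGCGNGGNGGCAG on both strands. Of the 187695 loci 12 held it, and 2 of these 12 were neighbours upstream of H19, where CTCF insulates Igf2 from enhancers on the unmethylated maternal copy. H19/Igf2 locus 21 held 2 matches and H19/Igf2 locus 22 held 1, each of them on the minus strand and with 3 CpG in the 30 bases shown. In the plus strand of GRCm38 they read as follows, with the core in capitals.

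H19/Igf2 locus 21, chr7:142580301-142580330: gtattgtaCTGCCACCACGCGGcatcgtct

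H19/Igf2 locus 21, chr7:142580756-142580785: ggagtatgCTGCCACCGCGCGGtagcatcc

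H19/Igf2 locus 22, chr7:142582026-142582055: cgattttgCTGCCACCACGCGGcaactccc

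The hexamer TGCCGC, which ZFP57 recognises when its CpG is methylated, was searched on both strands. At the first and the last of the CTCF matches a hexamer overlapped the core. All 11 control loci held the hexamer, with 1 match at Dlk1/Meg3 locus 36 and 14 at Gnas locus 9, whereas 18.4% of all loci held it. Since control loci were wide and rich in CpG, the share was also taken over 30374 loci of the widths of the control loci, of which 40.9% held the hexamer, and over 5235 loci elsewhere within the range of their CpG density, of which 35.5% did. At least 3 matches were found in 10 of the 11 control loci, in 4.42% of the loci of like width and in 4.22% of those of like CpG density. Per 10 kb of sequence the control loci held 22.4 hexamers, against 3.17 over the loci of like CpG density and 1.92 over the other 278 loci of the windows. A match is a description of the sequence and does not show binding.

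The stretches below are 120 bases of the plus strand of GRCm38 inside 6 control loci, placed outside annotated untranslated exons where the most hexamers fell, and are shown for the spacing of hexamers, which are in capitals on either strand.

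Dlk1/Meg3 locus 33, chr12:109528340-109528459: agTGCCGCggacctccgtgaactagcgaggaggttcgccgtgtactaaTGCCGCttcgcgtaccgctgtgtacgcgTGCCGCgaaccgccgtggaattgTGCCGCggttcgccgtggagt

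H19/Igf2 locus 21, chr7:142580274-142580393: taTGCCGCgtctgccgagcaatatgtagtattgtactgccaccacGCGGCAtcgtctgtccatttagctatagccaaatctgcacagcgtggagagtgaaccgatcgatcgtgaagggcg

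Kcnq1 locus 31, chr7:143295627-143295746: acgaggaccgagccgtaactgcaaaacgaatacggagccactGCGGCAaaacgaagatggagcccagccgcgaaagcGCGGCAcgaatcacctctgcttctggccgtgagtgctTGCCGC

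Igf2r locus 21, chr17:12741715-12741834: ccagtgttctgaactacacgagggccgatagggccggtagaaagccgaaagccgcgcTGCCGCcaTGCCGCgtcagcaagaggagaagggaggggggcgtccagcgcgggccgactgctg

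Peg3 locus 8, chr7:6730061-6730180: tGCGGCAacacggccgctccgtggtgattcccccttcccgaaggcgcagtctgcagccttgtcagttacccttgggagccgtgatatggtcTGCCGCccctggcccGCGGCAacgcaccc

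Gnas locus 9, chr2:174295843-174295962: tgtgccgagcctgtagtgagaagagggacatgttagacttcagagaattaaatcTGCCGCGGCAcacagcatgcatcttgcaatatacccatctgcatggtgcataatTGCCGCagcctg

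Within the stretch of Dlk1/Meg3 locus 33 there were 20 CpG and 4 of the 9 hexamers of the locus, and the stretch of Kcnq1 locus 31 held all 3 of its hexamers among 14 CpG. At Gnas locus 9 the stretch held 3 of 14 hexamers, a pair of which overlapped as a palindrome, with only 4 CpG. The stretch from the Grb10 control locus held no hexamer and is shown as the densest in CpG, with 27 CpG in 120 bases.

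Grb10 locus 5, chr11:12026372-12026491: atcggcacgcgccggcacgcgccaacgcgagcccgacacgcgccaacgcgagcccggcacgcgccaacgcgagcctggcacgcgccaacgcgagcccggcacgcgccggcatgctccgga

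Library totals ranged from 7724481 to 14133801 counts, at which the median member held 25.6 counts per library and none averaged under 10. Mean counts are over all 48 libraries. Levels are given as CPM, the counts scaled to a common library size (TMM-normalised), and like the tests rest on 46 libraries, since 2 Tph2-/- MS libraries of low total were left out. The labels number the libraries, and the numbers did not mix the conditions: 1 to 17 and 42 to 48 were C, 18 to 41 were MS. Libraries 18 to 26 stood apart, with 8 of 9 showing a positive slope of log2 counts on CpG density, against 3 of 17 in libraries 1 to 17, 6 of 15 in 27 to 41 and 1 of 7 in 42 to 48. The labels set no boundary between libraries 26 and 27, so this run was drawn from the data themselves. Calls for MS are therefore given with and without libraries 18 to 26. MS and the library numbers cannot be told apart. Captured DNA holds no expression markers, and the labelled tissue could not be checked from it.

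The control loci rose above their windows in captured DNA. Counts per kb, which take out the width of a locus, were 1.19 to 2.24 times the median of the other loci of the same window, with a median of 1.62 times, and 5 of the 11 ranked first in their window. In CpG per 100 bp they were 1.70 to 4.06 times the median of the other loci of their window, and 6 ranked first. Over all loci the median was 29.5 counts per kb and 1.82 CpG per 100 bp, and the 278 other loci of the windows had medians of 28.5 and 1.64. The highest mean count entered the choice among candidates, so that these levels are a description.

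**Figure D1:**
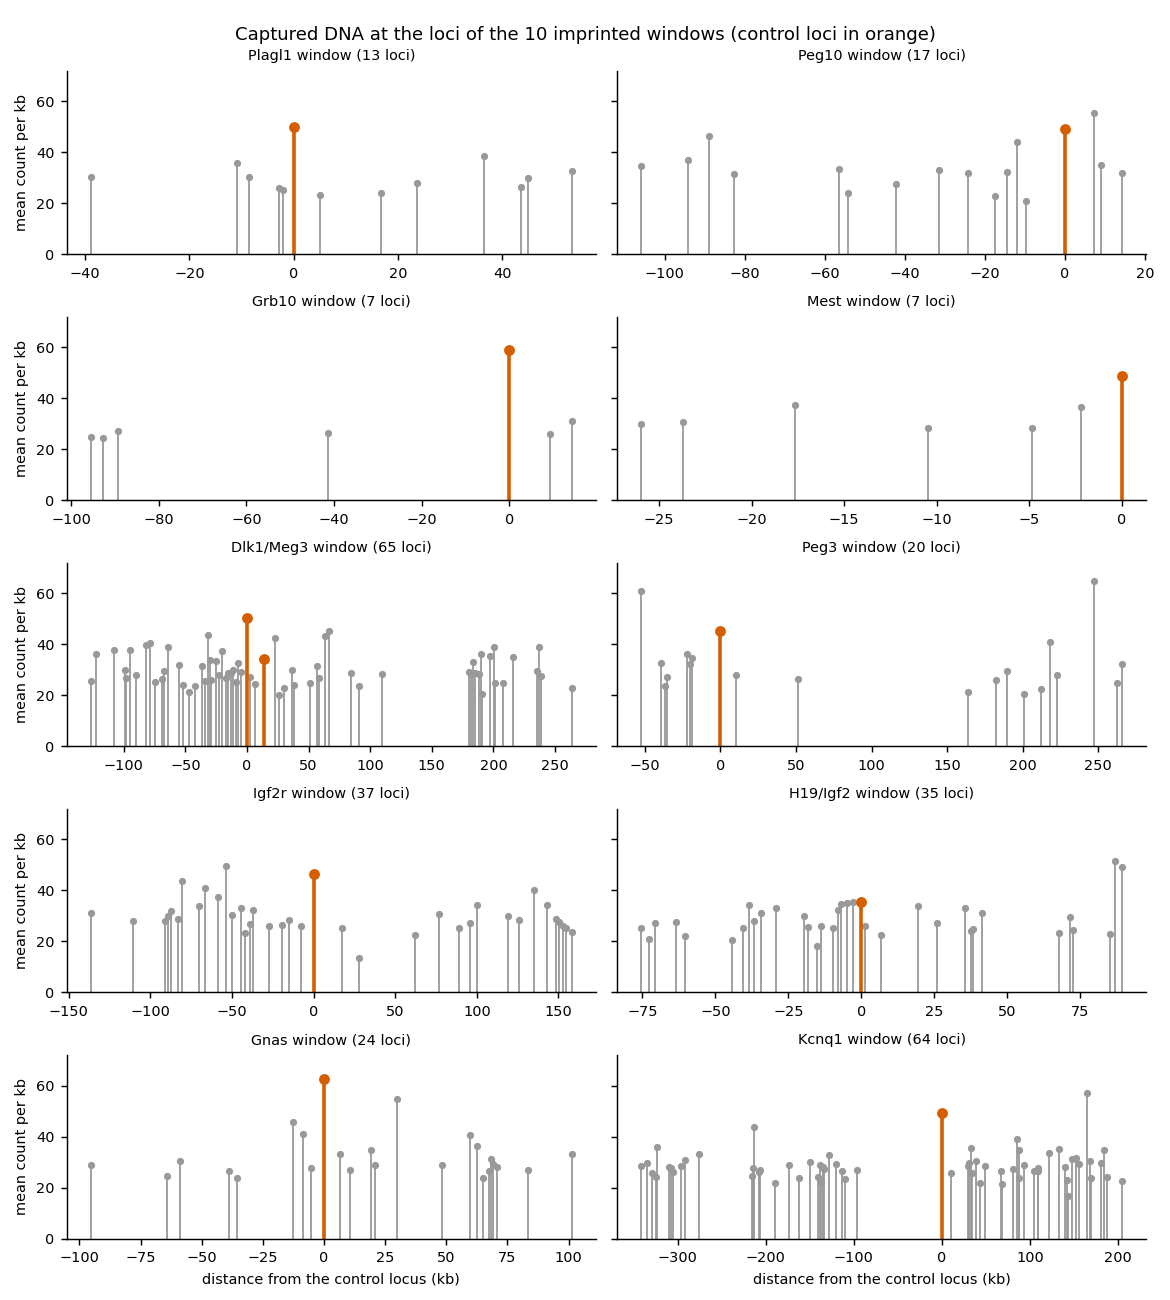
Mean count per kb (y axis) of each locus against its distance in kb from the control locus of its window (x axis), with 1 panel per window, control loci in orange and other loci in grey. A control locus is the highest line of its window at Plagl1, Grb10, Dlk1/Meg3, Gnas and Mest, and Dlk1/Meg3 locus 36 (34.3 counts per kb) stands among its neighbours.

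Among the maternally methylated control loci, Gnas locus 9 was the widest and the richest in counts. It spanned chr2:174294853-174301381 over the start of Nespas, the antisense RNA of the cluster, and an upstream coding exon of Gnas, which encodes the stimulatory G protein alpha subunit, and averaged 407 counts (62.4 per kb, 5.25 CpG per 100 bp). Grb10 locus 5 (chr11:12025102-12027166) covered the start of an untranslated exon of Grb10, an adaptor protein that restrains insulin signalling, with 121 counts, 58.8 per kb and 7.89 CpG per 100 bp. Plagl1 locus 6 (chr10:13089738-13092183) covered the start of Plagl1, a zinc finger regulator of growth, with 49.9 counts per kb. Peg10 locus 14 (chr6:4746508-4749696; 49.3 per kb) lay over the divergent starts of Peg10, a gene derived from a retrotransposon, and Sgce, which encodes epsilon-sarcoglycan. Kcnq1 locus 31 (chr7:143294707-143296874; 49.2 per kb) lay in an intron of Kcnq1 at the start of Kcnq1ot1. Mest locus 7 (chr6:30736332-30739215; 48.6 per kb), over the first exons of Mest, a gene of the hydrolase family, and Igf2r locus 21 (chr17:12741165-12743006; 46.4 per kb), at the start of Airn within an intron of Igf2r, were close to it. Peg3 locus 8 (chr7:6728241-6731390; 45.2 per kb) covered the shared start of Peg3, a zinc finger gene, and Usp29, and had the lowest CpG density of the 8, 3.97 per 100 bp.

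The paternally methylated control loci were lower in CpG, at 3.33 to 3.60 per 100 bp. Dlk1/Meg3 locus 33 (chr12:109525590-109528732), between genes upstream of the long non-coding RNA Meg3, had 50.5 counts per kb and the most counts per CpG of the 11, 1.48. H19/Igf2 locus 21 (chr7:142579844-142581256), which holds the CTCF cores printed above, had 35.4 per kb. Dlk1/Meg3 locus 36 (chr12:109539555-109542415), at the start of Meg3 itself, had 34.3 per kb and ranked only 18th of the 65 loci of its window.

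Counts per CpG were lower at each control locus than at most loci elsewhere in the pooled range of their CpG densities. The 11 values ran from 0.745 at Grb10 locus 5 to 1.48 at Dlk1/Meg3 locus 33 with a median of 1.02, and all 11 lay below 1.87, the median of the 5235 loci of like CpG density elsewhere. They fell at the 11.98th to 41.4th percentile of those loci. The control loci had a median of 4.80 CpG per 100 bp and the loci elsewhere 3.68, so that density was not matched locus by locus. Much of the sequence of the loci elsewhere was repeats, with a median of 73.5% masked bases, against 8.52% at the control loci. The comparison is thus between sequence of different kinds, and the part of repeats was not tested. Above 5 CpG per 100 bp the level of all loci fell, from a median of 92.6 counts per kb at 4 to 5 CpG per 100 bp to 44.2 at 5 to 6 and 33.7 at 6 to 8. The control loci at those densities exceeded these medians, with 46.4 to 62.4 counts per kb for Gnas locus 9, Peg10 locus 14 and Igf2r locus 21, and 58.8 for Grb10 locus 5. Those at 4 to 5 CpG per 100 bp (Plagl1 locus 6, Kcnq1 locus 31 and Mest locus 7) lay below theirs.

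**Figure D2:**
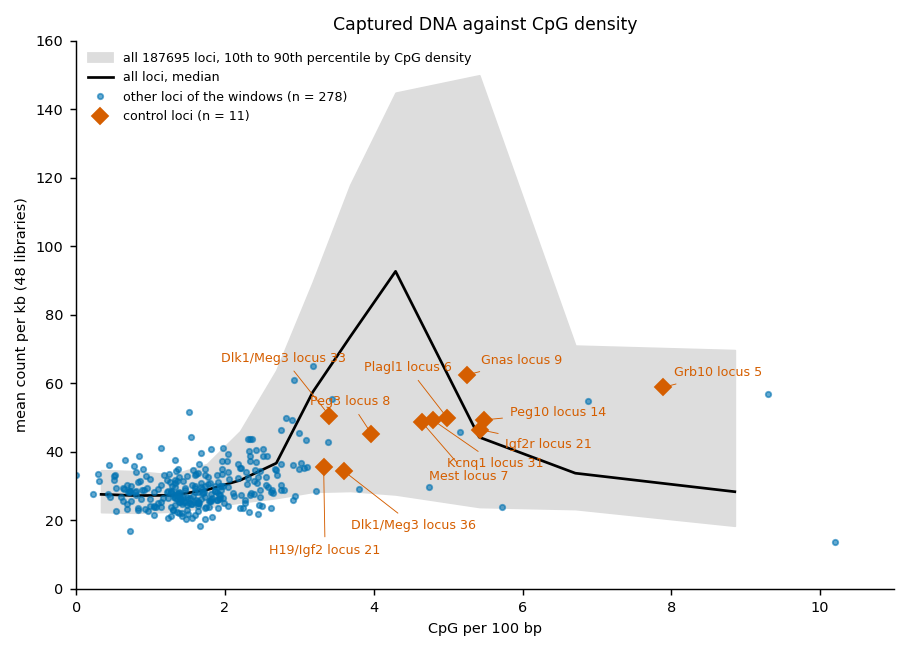
Mean count per kb (y axis) against CpG per 100 bp (x axis) for the control loci (orange), the other 278 loci of the windows (blue) and all loci by CpG density (black line, median; grey band, 10th to 90th percentile). The control loci sit between 34.3 and 62.4 counts per kb over a range of CpG density in which the median of all loci rises to 92.6 and falls to 33.7.

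The windows held further CpG-rich promoters. Igf2r locus 23 (chr17:12769100-12770197), at the promoter of Igf2r, the receptor that clears the growth factor IGF2, was the densest member at 10.2 CpG per 100 bp and held the fewest counts per kb of all 289, 13.5, with 0.132 counts per CpG. The level at the Igf2r promoter was thus below that at the Airn start, 46.4 per kb, in the same window. Kcnq1 locus 58 (chr7:143458621-143461749), over Cdkn1c, an inhibitor of cyclin-dependent kinases, was almost as dense, at 9.30 CpG per 100 bp, and held 56.9 counts per kb. Gnas locus 14 (chr2:174326600-174329551), over an untranslated exon at a start of Gnas, held 54.7, and Gnas locus 6 (chr2:174283768-174287454), over an upstream coding exon of Gnas and an exon of Nespas, held 45.8. Both Gnas loci were named after their values were seen. Outside the CpG-rich starts, the highest levels were at the edges of the Peg3 window, where Peg3 locus 18, at the starts of Zim3 and Zfp264, held 65.0 counts per kb and Peg3 locus 1, over a coding exon of Zim1, held 60.99. Zim1, Zim3 and Zfp264 are zinc finger genes of the Peg3 cluster.

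Control loci varied more between libraries than most loci of like mean count, a difference that was smaller against loci of like CpG density. The coefficient of variation within groups was 20.2 to 50.1%, with 10 of the 11 above 20.4%, the median of the loci of like mean count. The median of the loci elsewhere of like CpG density was 31.9%, with 4 of the 11 control loci below it and 7 above. The 8 maternally methylated loci had 26.6 to 50.1% and the 3 paternally methylated ones 20.2 to 20.95%, and the ranges did not overlap. Grb10 locus 5 was at the 99.9th percentile of the loci of like mean count. CpG density differed between the 8 and the 3 as well (medians of 5.12 and 3.40 per 100 bp), and its part in this was not tested.

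The high values came from few libraries. Tph2-/- MS replicate 2 was the highest library at 9 of the 11 control loci, and Tph2+/+ MS replicate 1 was the highest or the second at 8. Both belonged to libraries 18 to 26. At Gnas locus 9 the CPM was 32.1 to 105.03 with a median of 58.0 in the 8 fitted libraries of 18 to 26, 26.1 to 54.3 (median 35.01) in libraries 1 to 17, 21.6 to 41.2 (median 30.4) in 27 to 41, and 23.1 to 32.9 (median 30.04) in 42 to 48. At Grb10 locus 5 the same medians were 19.6, 9.94, 8.92 and 7.59 CPM, and the mean of libraries 18 to 26 was 2.04 times that of the others. Libraries 27 to 41, which were MS as well, lay with the C libraries at both loci.

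Over the 11 control loci the ratio of the mean in libraries 18 to 26 to the mean of the others ran from 0.999 at H19/Igf2 locus 21 to 2.04 at Grb10 locus 5, and the 3 paternally methylated loci had the lowest ratios, 0.999, 1.20 and 1.22. These 3 also had a lower CpG density than the 8 maternally methylated loci (medians of 3.40 and 5.12 per 100 bp). Among the 8, Peg3 locus 8 had both the lowest density, 3.97 per 100 bp, and the lowest ratio, 1.36. Parental methylation and CpG density were thus not separated here, and the part of density was not tested. The mean log2 ratio of the 8 maternally methylated loci to their medians over the fitted libraries had a median of 0.69 in libraries 18 to 26. It was 0.11 in 1 to 17, -0.17 in 27 to 41 and -0.29 in 42 to 48. For the 3 paternally methylated loci the medians were 0.10, 0.053, -0.074 and -0.027, and for the other 278 members they were -0.029, -0.040, -0.049 and -0.014. In single libraries the mean ratio of the other members ran from -0.12 to 0.04 and that of the 11 control loci from -0.44 to 1.28. The library with the highest control loci, Tph2-/- MS replicate 2, also had the highest CpG slope of the 46, 0.239.

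**Figure D3:**
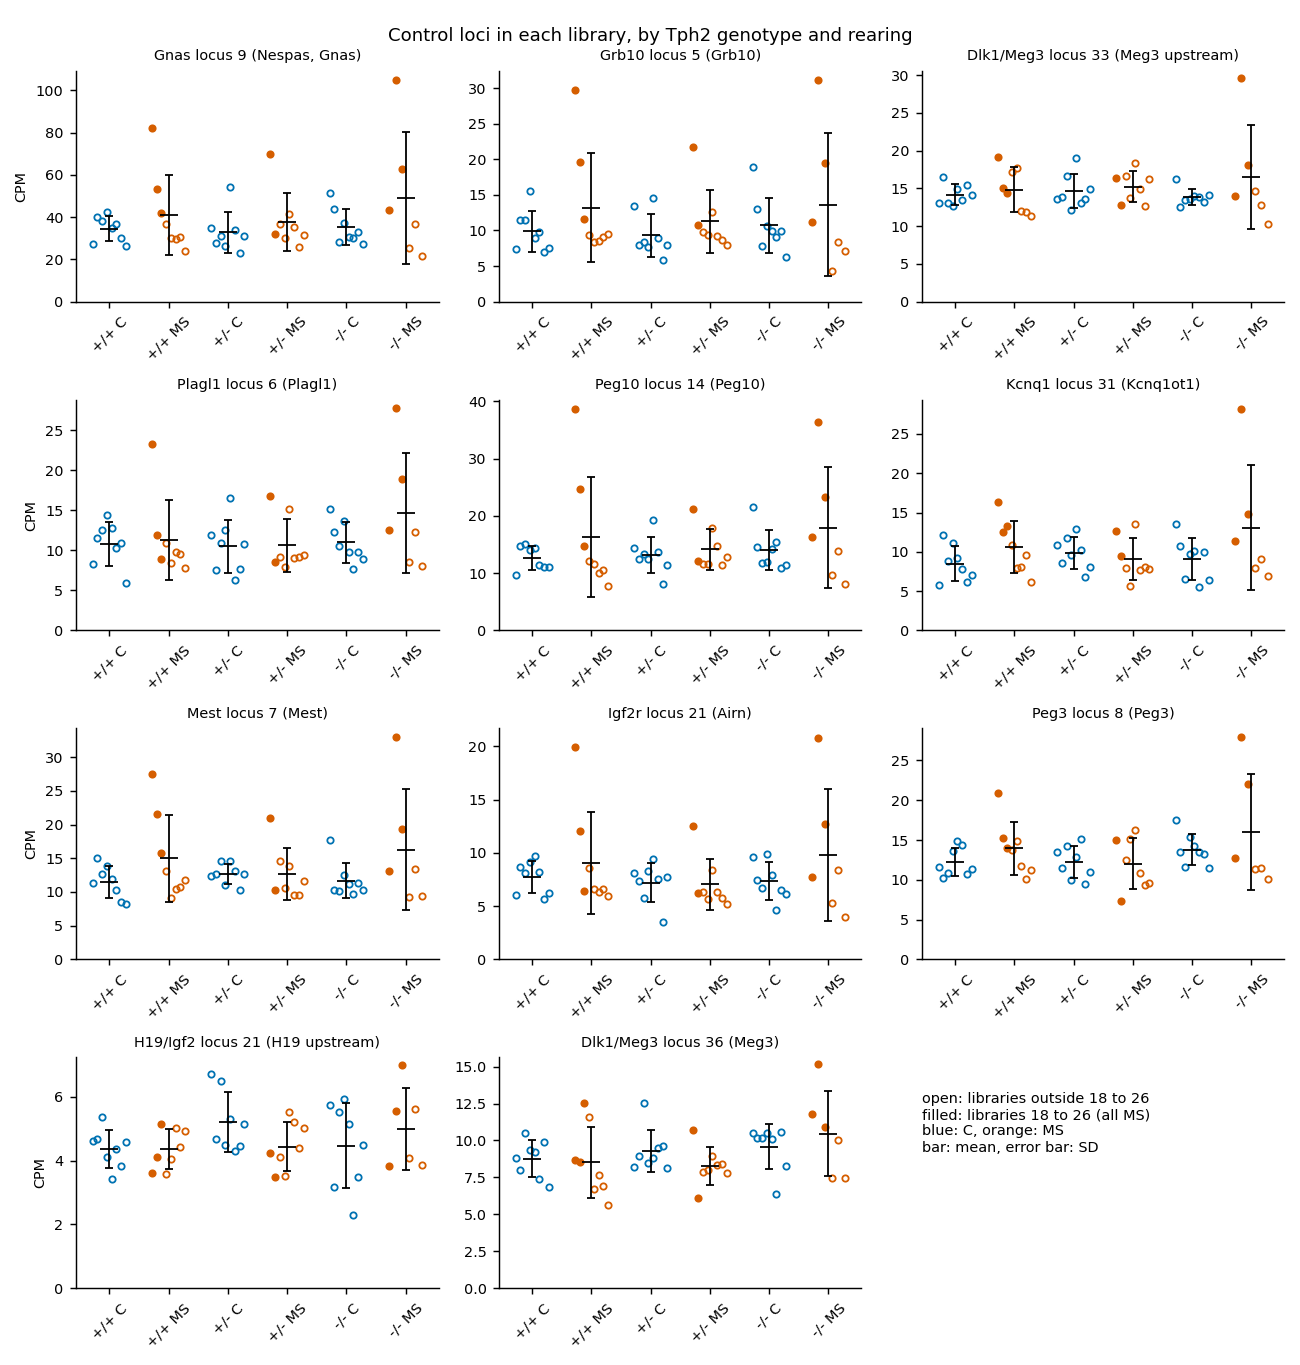
CPM (y axis) of the 11 control loci in each of the 46 libraries by group (x axis; blue, C; orange, MS), with filled points for libraries 18 to 26, and a bar and error bar for the mean and SD of each group. The filled points reach 105.03 CPM at Gnas locus 9 and 31.1 at Grb10 locus 5, and at both loci most open MS points lie among the C points.

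None of the 11 control loci passed the study's limits (p under 0.01 before adjustment and a log2 fold change beyond 0.2) in any of the 8 contrasts tested by edgeR's quasi-likelihood test. Unadjusted p fell under 0.05 at 2 of the 11 for MS against C over genotypes, at 2 for MS in Tph2-/- mice and at 1 for Tph2-/- against Tph2+/+, and DESeq2 gave 2 and limma voom 0 for MS over genotypes. Of all loci 12.2, 7.11 and 4.08% were under 0.05 by edgeR in these 3 contrasts, in that order. With all 48 libraries edgeR gave 4 of the 11 over genotypes and 6 in Tph2-/- mice, and with another pair of Tph2-/- MS libraries left out it gave 0 for both. The shares of all loci in those fits are not given here. With all 48 libraries 92.7 and 93.5% of the loci of like CpG density elsewhere were above 0 in these 2 contrasts (medians of 0.29 and 0.51). At Gnas locus 9 the lowest, median and highest CPM among C mice were 26.1, 35.7 and 42.2 for Tph2+/+, 23.1, 30.99 and 54.3 for Tph2+/- and 27.2, 31.8 and 51.4 for Tph2-/-. Among MS mice they were 23.8, 33.7 and 82.1 for Tph2+/+, 25.7, 33.7 and 69.8 for Tph2+/- and 21.6, 39.9 and 105.03 for Tph2-/-. All 6 groups overlapped, and the MS groups differed from C mainly in their highest library. The log2 fold change of MS over genotypes was 0.31 ± 0.15 (SE; unadjusted p = 0.0406, adjusted p = 0.382).

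Mest locus 7 gave the smallest p of the control loci in that contrast. Among C mice its lowest, median and highest CPM were 8.21, 11.6 and 15.1 for Tph2+/+, 10.3, 12.7 and 14.6 for Tph2+/- and 9.63, 10.8 and 17.7 for Tph2-/-. Among MS mice they were 9.07, 12.4 and 27.5 for Tph2+/+, 9.51, 11.1 and 20.99 for Tph2+/- and 9.26, 13.3 and 32.97 for Tph2-/-. The groups overlapped, and the log2 fold change was 0.28 ± 0.13 (SE; unadjusted p = 0.0342, adjusted p = 0.363). H19/Igf2 locus 21 and Dlk1/Meg3 locus 36, both paternally methylated, had the values nearest to 0, -0.022 ± 0.093 and -0.028 ± 0.082. At H19/Igf2 locus 21 the group medians lay between 4.27 and 4.92 CPM.

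Over the 11 control loci the MS contrast was above 0 at 9, with a median log2 fold change of 0.19, where 92.0% of the 5235 loci of like CpG density elsewhere were above 0 with a median of 0.22 and all loci had a median of 0.0017. When libraries 18 to 26 were left out, all 11 control loci were below 0 (median -0.16, from -0.27 to -0.029), with 3 at an unadjusted p under 0.05, the smallest 0.0111 at Peg10 locus 14, and 22.9% of the dense loci were above 0. With the CpG slope of each library as a covariate all 11 were again below 0 (median -0.07), with 1 at an unadjusted p under 0.05, and 39.9% of the dense loci were above 0. The shares of all loci at an unadjusted p under 0.05 in these 2 fits are not given here. The counts of 3 and 1 therefore do not show a difference from all loci. In Tph2-/- mice the 11 were above 0 with a median of 0.35, and without libraries 18 to 26, which left 3 Tph2-/- MS libraries, they were all below 0 with a median of -0.21. The study does not name the 2 Tph2-/- MS libraries it left out, and with another pair left out the median in Tph2-/- mice was 0.092 with 9 of 11 above 0, with all 48 libraries 0.53 with 11 above 0, and with the slope as a covariate -0.074 with 4 above 0. The direction of the MS difference at the control loci thus turned with the libraries entered. Libraries 18 to 26 were set apart by their CpG slope in these same data. Leaving out MS libraries of high slope, or fitting the slope, tends to lower MS values at CpG-rich loci. The turn is therefore a description and not an independent test.

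**Figure D4:**
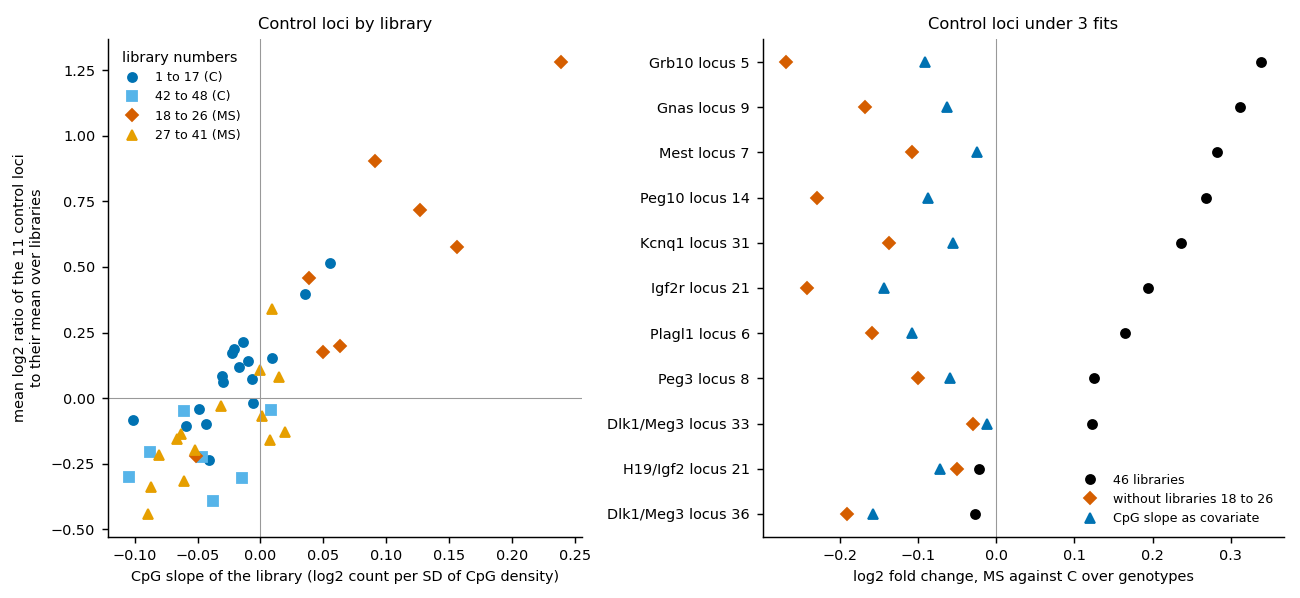
Left, mean log2 ratio of the 11 control loci to their median over libraries (y axis, labelled as the mean) against the CpG slope of each library (x axis), with symbols for runs of library numbers. Right, log2 fold change of each control locus for MS against C over genotypes (x axis) in 46 libraries (black), without libraries 18 to 26 (orange) and with the CpG slope as a covariate (blue). On the right, 9 of the 11 black points lie above 0 and all orange and blue points below.

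For Tph2-/- against Tph2+/+ over C and MS all 11 were above 0, from 0.025 to 0.21 on the log2 scale with a median of 0.14. The same held for 88.2% of the dense loci elsewhere (median 0.12). For Tph2+/- against Tph2+/+ 4 of 11 were above 0 with a median of -0.061, as were 42.6% of the dense loci (median -0.016). Leaving out libraries 18 to 26 gave 5 and 10 of 11 above 0, with medians of -0.0034 and 0.088. Of the dense loci 41.3 and 73.9% were then above 0. With another pair of Tph2-/- MS libraries left out, Tph2-/- against Tph2+/+ had 5 of 11 above 0 (median -0.0083). The interactions GE1, which is the MS effect in Tph2+/- less that in Tph2+/+, and GE2, the MS effect in Tph2-/- less that in Tph2+/+, had medians of -0.22 with 0 of 11 above 0 and 0.16 with 10 above 0. Of the dense loci elsewhere 28.1% were above 0 for GE1 (median -0.095) and 64.4% for GE2 (median 0.052). Both interactions share the Tph2+/+ groups. With library totals in place of TMM, which moved the median of all loci for GE1 from -0.011 to 0.15, 5 of the 11 were above 0, for GE2 3 were above 0 (median -0.12) when another pair of Tph2-/- MS libraries was left out, and without libraries 18 to 26 the medians were 0.018 for GE1 and -0.13 for GE2.

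Over all 289 members no contrast gave a locus with a Benjamini-Hochberg adjusted p under 0.05 by edgeR, DESeq2 or limma voom. The percent of all loci called at that limit was 0 for GE1, GE2 and MS in each genotype, 0.0128 for MS over genotypes, 0.00213 for Tph2+/- and 0.0139 for Tph2-/- against Tph2+/+. At the limits of the study, edgeR called 8 members for MS over genotypes (2.77%), where 3.63% of all loci were called. In MS within Tph2+/+, Tph2+/- and Tph2-/- mice 5, 1 and 3 members were called, against 1.31, 0.779 and 1.48% of all loci. There were 2 members for GE1 and 1 for GE2, with 0.626 and 0.558% of all loci called, and 1 for Tph2+/- and 2 for Tph2-/- against Tph2+/+, with 0.546 and 0.748%. As percentages of the 289 members these counts are 1.73, 0.346, 1.04, 0.692, 0.346, 0.346 and 0.692, near the share of all loci in each contrast. Unadjusted p under 0.05 was found at 30 members for MS over genotypes (10.4%, against 12.2% of all loci) and at 5 to 23 in the other contrasts. The fewest were for GE2 (1.73%, against 3.36% of all loci) and the most for MS in Tph2-/- mice (7.96%, against 7.11%). The 23 calls fell on 17 loci, none of which was a control locus, and no call was in the Mest window.

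Of the 8 members called for MS over genotypes 4 were higher and 4 lower, where 2.28% of all loci were called higher and 1.35% lower. The Igf2r window held 3 of them, and these 3 were also called within Tph2+/+ mice, which are part of the same comparison (loci 23, 28 and 29 at 0.99, 0.51 and -0.79). None of the 3 was called by edgeR within Tph2+/+ mice without libraries 18 to 26, at 0.14, 0.37 and -0.62 with unadjusted p of 0.704, 0.0733 and 0.0661. Igf2r locus 29 (chr17:12860724-12861159), the narrowest member at 436 bp, lay in an intron of Mas1, a G protein-coupled receptor of the renin-angiotensin system, was 64.2% repeats and held 13.1 counts per library. In Tph2+/+ mice the lowest, median and highest CPM were 1.04, 1.42 and 2.28 in C and 0.388, 0.809 and 1.42 in MS. In Tph2+/- mice they were 0.879, 1.47 and 2.33 in C and 0.771, 1.32 and 2.1 in MS, and in Tph2-/- mice 0.398, 1.26 and 2.12 in C and 0.277, 0.801 and 0.947 in MS. Each MS group overlapped its C group but had the lower median. The log2 fold change was -0.67 ± 0.18 (SE) over genotypes (unadjusted p = 0.000257), and its adjusted p of 0.120 was the smallest of all members. Within genotypes it was -0.79 ± 0.30, -0.24 ± 0.28 and -0.98 ± 0.33 in Tph2+/+, Tph2+/- and Tph2-/- mice, and the difference between genotypes did not pass the limits (GE1 0.56 ± 0.41, GE2 -0.18 ± 0.45). It was -0.49 over genotypes (unadjusted p = 0.0173) and no longer called without libraries 18 to 26, and in Tph2-/- mice -0.62 (unadjusted p = 0.127).

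The promoter of Igf2r moved the other way. Igf2r locus 23, the CpG-rich locus of few counts described above, held 0.412, 1.01 and 1.35 CPM with C and 0.756, 1.23 and 4.65 with MS rearing in Tph2+/+ mice. In Tph2+/- mice the values were 0.526, 1.13 and 1.68 in C and 0.579, 1.06 and 2.85 in MS, and in Tph2-/- mice 0.636, 1.06 and 1.90 in C and 0.595, 1.96 and 3.82 in MS. Medians were close in Tph2+/+ and Tph2+/- mice, and the 6 highest libraries of all 46 were of the numbers 18 to 26. The log2 fold change of 0.65 ± 0.19 (SE; unadjusted p = 0.00118, adjusted p = 0.165) was 0.060 without these libraries (unadjusted p = 0.785) and 0.23 with the CpG slope as a covariate. Igf2r locus 28 (chr17:12841491-12842488), over the coding exon of Mas1, was higher in MS by 0.30 ± 0.11 (unadjusted p = 0.00506), with group medians of 2.65, 3.15 and 2.98 CPM in C and 3.88, 3.80 and 3.27 in MS for the 3 genotypes in the order of null alleles. Here the value changed little without libraries 18 to 26, at 0.26, while p rose to 0.0377.

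In the growth regulator genes Plagl1 and Grb10 the called loci lay in introns, apart from the control loci. Plagl1 locus 4 (chr10:13087760-13088572), 2119 bp from an annotated start, was lower in MS by 0.44 ± 0.14 (unadjusted p = 0.00195, adjusted p = 0.184). Its group medians were 2.43 and 1.79 CPM in Tph2+/+ C and MS, 2.1 and 1.79 in Tph2+/-, and 2.42 and 1.48 in Tph2-/- mice, with overlapping ranges. Grb10 locus 6 (chr11:12034929-12035988) was higher, by 0.38 ± 0.12 (unadjusted p = 0.00276), with a highest library of 6.59 CPM in Tph2+/+ MS, against group medians of 2.11 to 2.72. These log2 fold changes were -0.32 and 0.17 without libraries 18 to 26, and neither was called. Within Tph2+/+ mice Grb10 locus 6 was called at 0.55 ± 0.21 but was at 0.18 (unadjusted p = 0.433) without these libraries.

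The remaining calls for MS over genotypes are named although they were outside the 5 of smallest p. Peg3 locus 18, at the starts of Zim3 and Zfp264, was higher by 0.26 ± 0.096 (unadjusted p = 0.00915) and at -0.027 without libraries 18 to 26. Grb10 locus 4, in an intron of Grb10, was lower by 0.41 ± 0.16, and Gnas locus 1, between genes at the edge of its window, was lower by 0.25 ± 0.096 (unadjusted p = 0.00967 and 0.00988). Neither was called without libraries 18 to 26, at -0.35 and -0.13.

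**Figure D5:**
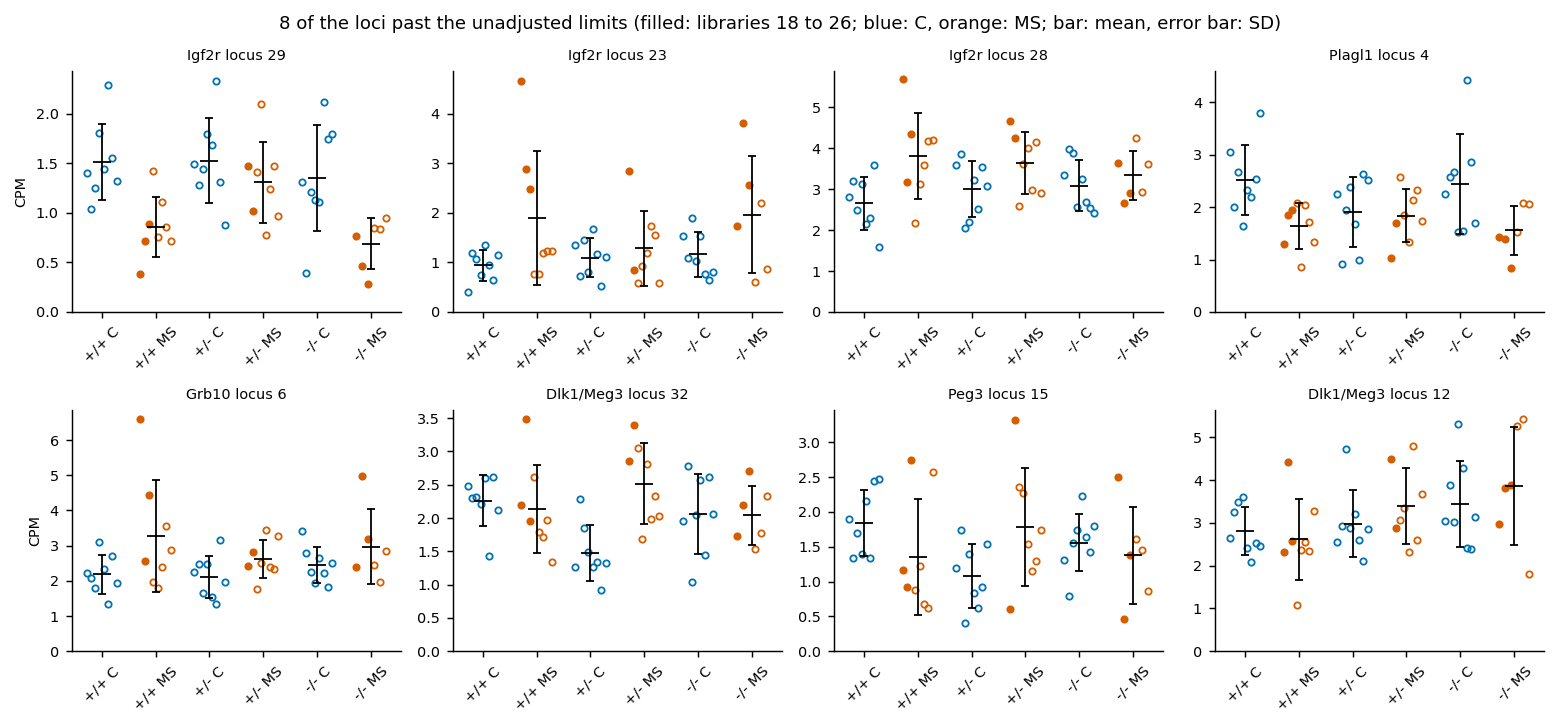
CPM (y axis) in each of the 46 libraries by group (x axis; blue, C; orange, MS; filled, libraries 18 to 26) for 8 loci past the limits of the study in some contrast, with the mean and SD of each group. At Igf2r locus 29 the MS medians (0.809, 1.32 and 0.801 CPM) lie below the C medians, and at Igf2r locus 23 the filled points are the highest, up to 4.65 CPM.

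Within single genotypes other members were called. In Tph2+/+ mice Kcnq1 locus 9 (chr7:142998948-143000075), in an intron of the antisense gene Tspan32os and 74.5% repeats, had 2.67, 3.66 and 5.03 CPM in C and 2.05, 2.53 and 3.16 in MS, a log2 fold change of -0.48 ± 0.18 (unadjusted p = 0.00961). It was -0.42 (unadjusted p = 0.0469) and not called without libraries 18 to 26. In Tph2+/- mice Dlk1/Meg3 locus 32 (chr12:109522191-109522976), between genes and next to the control locus upstream of Meg3, had 0.920, 1.33 and 2.29 CPM in C and 1.68, 2.57 and 3.40 in MS, a log2 fold change of 0.76 ± 0.22 (unadjusted p = 0.000863, adjusted p rounded to 1), and was at 0.63 with p just past the limit (unadjusted p = 0.0101) without libraries 18 to 26. Its neighbour, Dlk1/Meg3 locus 33, had medians of 13.8 CPM in C and 15.5 in MS of that genotype and a log2 fold change of 0.060 ± 0.13.

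In Tph2-/- mice 2 loci of the H19/Igf2 window were called in opposite directions. H19/Igf2 locus 26 (chr7:142615355-142616356), over an exon of the predicted gene Gm33148, held 1.88, 3.70 and 4.64 CPM in C and 1.62, 2.39 and 3.34 in MS, and was lower in MS by 0.58 ± 0.20 on the log2 scale (unadjusted p = 0.00513). H19/Igf2 locus 33 (chr7:142665131-142665901), in an intron of the growth factor gene Igf2 and over an exon of its antisense RNA Igf2os, held 0.578, 1.02 and 3.97 CPM in C and 1.15, 2.32 and 3.93 in MS. It was higher in MS by 0.75 ± 0.29 (unadjusted p = 0.00949). The ranges overlapped at both, and the H19 control locus had medians of 4.81 CPM in both groups. They were -0.46 and 0.72 without libraries 18 to 26, with unadjusted p of 0.0678 and 0.0375.

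The interactions called 3 members. For GE1, Dlk1/Meg3 locus 32 had 0.85 ± 0.31 (unadjusted p = 0.00672), made up of 0.76 in Tph2+/- mice and -0.091 ± 0.21 in Tph2+/+ mice, where C had 1.43, 2.31 and 2.61 CPM and MS 1.33, 1.96 and 3.49. The Tph2+/- C group had the lowest median of the 6 groups at this locus. Peg3 locus 15 (chr7:6941684-6942413), in an intron of Usp29, a deubiquitinase gene expressed from the paternal allele, had 1.12 ± 0.42 for GE1 (unadjusted p = 0.00824). In Tph2+/+ mice its CPM was 1.33, 1.80 and 2.47 with C and 0.615, 1.04 and 2.75 with MS rearing, and in Tph2+/- mice 0.412, 1.06 and 1.74 with C and 0.605, 1.64 and 3.32 with MS rearing. The MS group had the lower median in Tph2+/+ and the higher in Tph2+/- mice, and neither MS effect alone passed the limits (-0.42 ± 0.29 and 0.69 ± 0.30). The GE2 call, Kcnq1 locus 46 (chr7:143388667-143389611), in an intron of the potassium channel gene Kcnq1, was 0.83 ± 0.30 (unadjusted p = 0.00687), with 0.55 ± 0.22 in Tph2-/- and -0.29 ± 0.21 in Tph2+/+ mice. Its medians were 2.20 CPM with C and 3.40 with MS rearing in Tph2-/- mice, and 2.67 and 2.20 in Tph2+/+ mice. Without libraries 18 to 26 the log2 values were 0.90, 1.25 and 0.55, of which Peg3 locus 15 alone was called.

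Genotype called 3 members. Dlk1/Meg3 locus 12 (chr12:109459528-109460664) lay over a coding exon at the start of Dlk1, a ligand of the Notch family expressed from the paternal allele, and held 4.75 CpG per 100 bp but only 0.625 counts per CpG. It had group medians of 2.58 and 2.46 CPM in Tph2+/+ C and MS, 2.87 and 3.21 in Tph2+/-, and 3.09 and 3.85 in Tph2-/- mice. Tph2-/- exceeded Tph2+/+ mice by 0.41 ± 0.14 (unadjusted p = 0.00507, adjusted p rounded to 1), Tph2+/- exceeded them by 0.22 ± 0.14, which was not called, and the ranges of all groups overlapped. This call held in all 10 alternative fits, at 0.38 to 0.54. Peg10 locus 15 (chr6:4754232-4756295), over the coding exon of Peg10, held 55.3 counts per kb and was higher in Tph2-/- than in Tph2+/+ mice by 0.25 ± 0.092 (unadjusted p = 0.00865), with medians of 8.84 and 10.6 CPM in Tph2+/+ C and MS and 10.1 and 11.9 in Tph2-/- C and MS. The value was 0.0996 (unadjusted p = 0.334) without libraries 18 to 26. Kcnq1 locus 37 (chr7:143334538-143335416), in an intron of Kcnq1, was higher in Tph2+/- than in Tph2+/+ mice by 0.44 ± 0.14 (unadjusted p = 0.00251) with group medians of 2.45 and 1.88 CPM in Tph2+/+ C and MS and 2.69 and 2.63 in Tph2+/- C and MS. It was at 0.33 (unadjusted p = 0.0353) and not called without these libraries.

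Grouped by the parental allele from which the genes are listed as expressed, promoter loci followed the control loci among them. Of 16 genes listed as expressed from the paternal allele 14 had a locus within 1 kb of a start (18 loci). For MS over genotypes 17 of the 18 loci were above 0 with a median of 0.20. All loci had a median of 0.0017, but 92.0% of the loci elsewhere of the CpG density of the control loci were above 0 (median 0.22). Peg3 locus 18 was the 1 locus called, where 3.63% of all loci were called in this contrast. Without libraries 18 to 26 the median was -0.10, 5 of 18 were above 0 and none was called by edgeR. Of the dense loci elsewhere 22.9% were then above 0 (median -0.073). Of 20 genes listed as expressed from the maternal allele 13 had a locus (24 loci). The median over the 24 loci was 0.0078, 13 were above 0 and 1 was called, the Igf2r promoter. This list was not limited to the windows, as no member lay in Th or Osbpl5, which gave 4 and 2 of the loci. The allele expressed in the amygdala was not checked for any of the listed genes. The paternally expressed list held more CpG-rich loci (a median of 3.59 CpG per 100 bp, against 1.86), as the starts of several of its genes lie in control regions. The list of genes whose imprint depends on isoform or tissue had 2 of 3 genes with a locus (4 loci, all above 0 with a median of 0.28), none of them called, and without libraries 18 to 26 all 4 were below 0 with 1 called. The share of all loci called in that fit is not given here.

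The remaining lists lie outside the windows. Imprinted promoters elsewhere (11 of 14 genes with a locus, 16 loci) had 3 calls for MS over genotypes, at Inpp5f (0.27), Slc38a4 (0.27), an amino acid transporter, and Magel2 (0.23), where 3.63% of all loci were called. Of the 16 loci 15 were above 0 with a median of 0.23, as were 92.0% of the loci elsewhere of the CpG density of the control loci (median 0.22). In Tph2-/- mice Peg13, a non-coding RNA (0.53), and Magel2 (0.49) were called, where 1.48% of all loci were. None of these was called by edgeR without libraries 18 to 26, at 0.039, -0.0056 and 0.043 over genotypes and 0.065 and 0.045 in Tph2-/- mice. Genes of the machinery that sets or keeps imprints (11 of 16 with a locus, 30 loci) had 3 calls for MS over genotypes, against the same 3.63%, at Dnmt1, the maintenance methyltransferase (0.24), Uhrf1, its partner (0.28), and Dnmt3a, a de novo methyltransferase (0.43), which were 0.14, 0.14 and 0.10 and not called without these libraries. At Dnmt3b, another de novo methyltransferase, a locus was lower in Tph2-/- than in Tph2+/+ mice by 0.47 (unadjusted p = 0.00504) and lower with MS in Tph2-/- mice by 0.73, and at Dnmt3l one was higher with MS in Tph2+/- mice by 0.65 (unadjusted p = 0.00482). None of these 3 differences was called by edgeR without libraries 18 to 26, at -0.50, -0.65 and 0.61 with unadjusted p of 0.0123, 0.0391 and 0.0125. None of these passed adjustment over all loci.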

How the data were processed

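Methylated DNA of 48 amygdalae was captured with a methyl-CpG-binding domain and sequenced as 50 bp read pairs. The authors mapped reads to GRCm38 with Bowtie2 2.1.0, called peaks with MACS, counted reads in merged peaks with DiffBind 2.0.9 and deposited 1 table of raw counts per locus and library. In each library 55.0 to 76.0% of the counts above 0 were even, so that counts may not be single independent fragments. Columns of the table that hold no library were used only as positions. Loci were annotated with GENCODE M21 on GRCm38, and sequences were read from that assembly.

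The counts of all 187695 loci were fitted in edgeR 4.0.16 (R 4.3.3) with TMM normalisation and the quasi-likelihood test, with 1 term per group and 8 contrasts. The SE of an edgeR value is its absolute log2 fold change divided by the square root of the F statistic of that test. It is thus tied to the p-value and is no separate measure of spread. The study left out 2 unnamed Tph2-/- MS libraries of low count, and here the 2 of lowest total (replicates 3 and 7) were left out. Loci were called at the limits of the study (unadjusted p under 0.01, log2 fold change beyond 0.2) and at a Benjamini-Hochberg adjusted p under 0.05. Named were the control loci, up to 5 called members of smallest p per contrast and the 5 members with the most counts per kb. Members and lists were chosen with earlier results of these data known. The 10 alternatives included DESeq2 1.42.0 and limma 3.58.1 voom. CPM was TMM-normalised, and log2 ratios used a pseudocount of 0.1. The CpG slope is the slope of a library's log2 counts on CpG density over loci. The fit was tested on simulated counts in which 100 loci per contrast were changed by 1 on the log2 scale. For GE1 73 of the 100 passed the limits of the study and 20 the adjusted limit. For Tph2-/- against Tph2+/+ 100 and 97 did. The changed loci were drawn from the whole table, with a spread set by mean count alone and no CpG slope of libraries. Control loci varied more than most loci of like mean count, so these shares do not give the recovery at them. Labels do not give litters, so p-values measure the spread between these mice, some of which may be littermates. Fewer methylated molecules and fewer copies of a locus cannot be told apart.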

Additional observations from a re-analysis of the deposited data

Results flagged for a closer look

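Among 168 combinations of a named locus and a group, 21 had a highest or lowest library set apart from the others by Dixon's criterion, where chance gives about 1 in 20, or 8.4. There were 3 libraries that held 4 of these each. In Tph2+/+ MS replicate 1 they were Plagl1 locus 6 (23.3 CPM), Igf2r locus 21 (19.9), Peg3 locus 8 (20.9) and Kcnq1 locus 58 (40.7). In Tph2+/- MS replicate 1 they were Grb10 locus 5 (21.7 CPM), Igf2r locus 21 (12.5), Gnas locus 9 (69.8) and Mest locus 7 (20.99). In Tph2-/- C replicate 1 they were Dlk1/Meg3 locus 33 (16.3 CPM), Peg10 locus 14 (21.6), Mest locus 7 (17.7) and Kcnq1 locus 58 (26.6). The first 2 of these libraries are of the numbers 18 to 26, as is Tph2-/- MS replicate 2, which stood apart at Kcnq1 locus 31 (28.2 CPM). The other high libraries were Tph2-/- C replicate 6 at Plagl1 locus 4 (4.43 CPM), Tph2+/- C replicate 3 at Dlk1/Meg3 locus 12 (4.74) and Dlk1/Meg3 locus 36 (12.6), Tph2+/- C replicate 5 at Gnas locus 9 (54.3), Tph2+/- MS replicate 7 at H19/Igf2 locus 26 (5.10), Tph2-/- C replicate 3 at H19/Igf2 locus 33 (3.97) and Tph2-/- C replicate 2 at Kcnq1 locus 46 (4.18). The low one was Tph2+/+ C replicate 6 at Dlk1/Meg3 locus 32 (1.43 CPM).

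The MS effect differed between genotypes by the interaction contrast, at an unadjusted p under 0.01, at Dlk1/Meg3 locus 32 (GE1, log2 0.85), Peg3 locus 15 (GE1, 1.12) and Kcnq1 locus 46 (GE2, 0.83), none of which passed adjustment over all loci.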

How the results depend on the processing

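The number of called members moved by more than 1.5 times in 28 combinations of a result and an alternative and stayed within that in 62. Without libraries 18 to 26 the counts were 2 for MS over genotypes (8 in 46 libraries), 2 in Tph2+/+, 1 in Tph2-/-, 0 for GE2, 4 for Tph2+/- and 1 for Tph2-/- against Tph2+/+. With the CpG slope as a covariate they were 2 for MS over genotypes, 2 in Tph2+/+, 2 in Tph2+/-, 0 in Tph2-/-, 3 for Tph2+/- and 1 for Tph2-/- against Tph2+/+. Limma voom gave 2, 1 in Tph2+/+, 0 in Tph2-/-, 0 for GE2, 2 and 1. With another pair of Tph2-/- MS libraries left out the counts were 3, 1 in Tph2-/-, 0 for GE2, 3 and 1, with all 48 libraries 7 in Tph2-/- and 0 for GE2, and by DESeq2 5 in Tph2-/- and 2 for GE2. No alternative gave a member at an adjusted p under 0.05. The share of all loci called under each alternative is not given here. The counts therefore do not show whether the members moved apart from all loci. The cause of these changes was not tested. For MS over genotypes, 20 values changed sign. Without libraries 18 to 26 the log2 fold changes were -0.027 at Peg3 locus 18, -0.16 at Plagl1 locus 6, -0.27 at Grb10 locus 5, -0.029 at Dlk1/Meg3 locus 33, -0.24 at Igf2r locus 21, -0.17 at Gnas locus 9, -0.23 at Peg10 locus 14, -0.11 at Mest locus 7, -0.10 at Peg3 locus 8 and -0.14 at Kcnq1 locus 31. With the slope they were -0.11 at Plagl1 locus 6, -0.091 at Grb10 locus 5, -0.012 at Dlk1/Meg3 locus 33, -0.14 at Igf2r locus 21, -0.063 at Gnas locus 9, -0.088 at Peg10 locus 14, -0.025 at Mest locus 7, -0.059 at Peg3 locus 8 and -0.055 at Kcnq1 locus 31. By voom Igf2r locus 21 was at -0.0025. Deviations of libraries with the same replicate number had correlations of -0.16 to 0.24 (median 0.01, 110 pairs), so that the numbers do not pair the mice. With a replicate block 10 members were called for MS over genotypes and 1 for Tph2-/- against Tph2+/+. At a median of 25.6 counts per member, changes of single loci smaller than the limits could not be resolved. Larger changes could be missed as well, since the median SE over members was 0.31 for GE1 and 0.32 for GE2.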
